A study of Sus scrofa with 20 samples.

Results

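Angiotensinogen, the product of the gene AGT, was followed in the heart of female pigs through 3 protocols of coronary ischemia and in sham-operated controls. Its members are the probe sets that the platform's gene table assigns to AGT. There was 1 such probe set (Entrez gene 100157073), among 24123 on the array and among the 23999 that were tested after 124 control spots had been left out. AGT was picked because of its pattern in these same arrays, so its own levels and differences are given as a description, without a test.

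The series holds 20 arrays, with 5 animals in each of 4 groups. Control pigs had a sham operation. In the group called SWOP, named for the second window of preconditioning, a coronary artery was closed 2 times for 10 min, with 10 min of flow after each, and tissue was taken at 24 h of reperfusion per the labels. The group called RCO (repetitive coronary occlusion) received that same pair of occlusions 6 times at intervals of 12 h. The group called RCS (repetitive coronary stenosis) had its coronary flow reduced for 90 min, 6 times and 12 h apart. The time from the last episode to sampling in RCO and RCS, the region of the heart that was sampled, and the age and breed of the pigs are facts not given in the sources used here. No agent or altered gene is named for any group. The series title asks whether preconditioning by chronic ischemia and the classical second window differ in their mechanisms.

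Angiotensinogen is a secreted protein of the serpin family that acts as the precursor of all angiotensin peptides. It is first cut to angiotensin I, angiotensin-converting enzyme trims that to angiotensin II, and angiotensin II acts mainly through the type 1 receptor to raise blood pressure and to drive growth and scarring in the heart. The liver makes most circulating angiotensinogen, fat tissue makes some, and a smaller amount is made within the heart itself.

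AGT signal was lower after both repeated protocols than in control hearts. Values are deposited log2 signals, on which a difference of 1 is a doubling. The control arrays, replicates 1 to 5, read 10.86, 10.71, 10.35, 11.86 and 11.32, a mean of 11.02 ± 0.58 (SD, n = 5). The SWOP arrays read 10.79, 10.39, 10.41, 10.80 and 10.78, a mean of 10.63 ± 0.21 (SD, n = 5). SWOP thus lay within the span of the control arrays. The RCO arrays read 8.75, 8.32, 9.80, 8.33 and 9.96, a mean of 9.03 ± 0.80 (SD, n = 5). The RCS arrays read 9.37, 8.31, 7.09, 7.70 and 8.63, a mean of 8.22 ± 0.87 (SD, n = 5). Each RCO and each RCS array was below every control array and every SWOP array. In tissue RNA of this kind, fewer cells that make a transcript and less transcript per cell cannot be told apart.

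**Figure D1:**
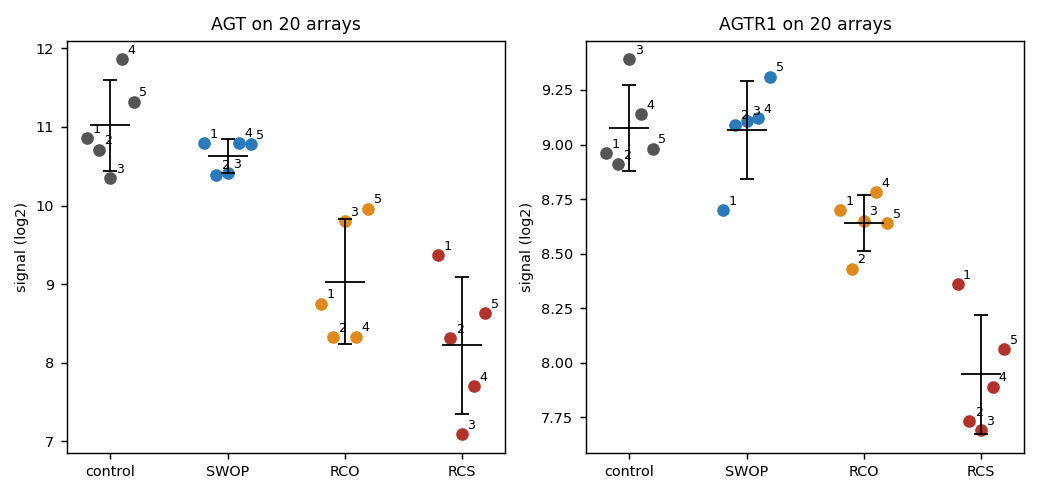
Log2 signal of AGT and of AGTR1, the type 1 angiotensin II receptor, on each of the 20 arrays by group (points) with the group mean and SD. AGT runs from 10.35 to 11.86 in control and from 7.09 to 9.37 in RCS, and AGTR1 from 8.91 to 9.39 in control and from 7.69 to 8.36 in RCS.

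The order of the group means was control, SWOP, RCO and RCS. SWOP was 0.39 (log2) below control (SE 0.38), and the arrays of these groups overlapped. RCO was 1.99 below control (SE 0.38), a 3.97-fold lower signal, and 1.60 below SWOP. RCS was 2.80 below control (SE 0.38), a 6.96-fold lower signal, and 2.41 below SWOP. Between RCS and RCO the difference was 0.81 (SE 0.38), with overlap: RCS replicates 2, 3 and 4 read below every RCO array, and the highest RCS array exceeded 3 of the RCO arrays. The clear step in this order therefore lies between SWOP and RCO, while neither control and SWOP nor RCO and RCS were separated by array.

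Against all genes, AGT stood at the lower end. Among 6765 genes, each taken at its brightest probe set, none had a more negative difference between RCO and control. The next were LOC100152209, with a difference of -1.69, and KCNIP2, with -1.62. Between RCS and control 1 gene was lower, KCNIP2, which encodes a subunit of the potassium channel of the transient outward current. Its difference was -2.80, from a control mean of 10.93 to an RCS mean of 8.13. ADHFE1, a mitochondrial alcohol dehydrogenase, came after AGT with -2.73. Between SWOP and control, by contrast, 232 genes were lower than AGT. These places belong to the pattern for which AGT was chosen. For reference, the share of the 23999 probe sets whose 5 arrays all lay below the 5 control arrays was 2.95% in RCO and 17.8% in RCS, and 4.05% and 11.9% lay so below SWOP.

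AGT also varied more from pig to pig than most genes. Its span within a group was 2.28 in RCS, 1.64 in RCO, 1.51 in control and 0.41 in SWOP. Its SD was 0.58 in control, where the median SD over all genes was 0.15, and 0.87 in RCS, where that median was 0.17. In SWOP the SD was 0.21 against a median of 0.13, and in RCO 0.80 against 0.24. RCO fell into arrays near 8.3 to 8.8 (replicates 1, 2 and 4) and arrays near 9.8 to 10.0 (replicates 3 and 5). RCS was spread without such a gap.

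Markers of the tissue and of other cells that could supply AGT were set beside these values. Cardiac muscle was present on every array: MYH7, the slow myosin heavy chain, read 14.58 to 14.90. The mean of 10 cardiomyocyte genes, relative to its control mean, ran from -0.68 to -0.22 in RCS, from -0.29 to -0.08 in RCO and from -0.07 to 0.05 in SWOP. In RCS 8 of these 10 genes were lower than control past the threshold used throughout, a Benjamini-Hochberg adjusted p below 0.05 in limma over all tested probe sets. In that comparison 28.2% of all probe sets were called lower. ACTC1, cardiac actin, was the 1 of 10 called in RCO, where 4.81% of all probe sets were called lower. The part of these shifts in the AGT result was not tested.

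ALB, serum albumin and the defining hepatocyte gene, read 4.81 to 5.88 over all 20 arrays, near the floor of the array. Of the other hepatocyte genes APOA1, an apolipoprotein of high-density lipoprotein, was bright, at 9.15 to 10.65 over all arrays, and AHSG read 6.71 to 7.33. APOA1 differed from control by -0.24, -0.07 and -0.49 in SWOP, RCO and RCS and did not pass. The mean of 12 hepatocyte genes ran, relative to control, from -0.44 to -0.24 in RCS, from -0.21 to 0.06 in RCO and from -0.30 to -0.14 in SWOP. In RCS 8 of the 12 were called lower, where 28.2% of all probe sets were. Among these 8, SERPINA1 read 5.49 to 6.35 over all arrays, also close to the floor. In RCO none of the 12 was called by limma, with 2 at an unadjusted p below 0.05, where 10.7% of all probe sets were called. In SWOP 3 were called lower, where 4.14% of all probe sets were.

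Fat markers varied among the control arrays. ADIPOQ, adiponectin, which defines adipocytes and was singled out after its values had been seen, read 5.30, 5.38, 5.27, 9.67 and 5.60 in control and 4.82 to 5.73 on the other 15 arrays. Control replicate 4, which holds the high ADIPOQ signal, also held the highest AGT signal. It was the highest control array for CFD and PPARG too, but not for FABP4 (12.14, against 12.28 on replicate 5), LEP (7.23, against 7.25 on replicate 2) or LIPE (7.43, against 8.26 on replicate 2). Without that array AGT was 0.18 below control in SWOP, 1.78 below in RCO and 2.59 below in RCS. The mean of 6 adipocyte genes relative to control was -0.74 to -0.58 in RCS, -0.61 to -0.36 in RCO, -0.69 to -0.19 in SWOP and -0.46 to 0.85 in control. Of the 6, 1 was called lower in SWOP, 2 in RCO and 3 in RCS, where 1 was called higher. Over all probe sets 4.14%, 4.81% and 28.2% were called lower in SWOP, RCO and RCS, and 19.3% higher in RCS. The part of the fat markers in the AGT result was not tested.

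Of 6 measured macrophage markers 3 rose in RCO, where 5.9% of all probe sets were called higher, and 4 rose in RCS, where 19.3% were. Their mean on the RCO arrays was 0.32, 1.86, 1.26, 0.48 and 0.30 above control, and 0.86 to 1.43 in RCS. RCO replicates 2 and 3, the arrays highest in macrophage markers, read 8.32 and 9.80 for AGT. With both arrays left out, AGT in RCO was 2.01 below control. The part of the macrophage markers in the AGT result was not otherwise tested.

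**Figure D2:**
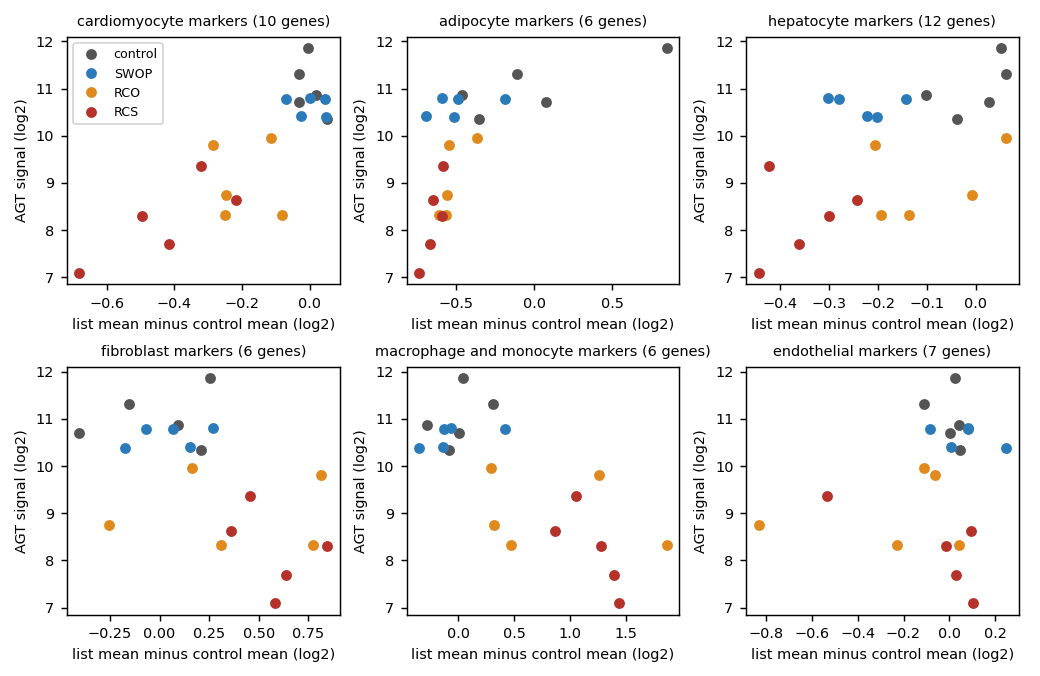
AGT log2 signal on each array (vertical axis) against the mean of the measured marker genes of a cell type relative to their control mean (horizontal axis, log2), with 1 panel per cell type and arrays coloured by group. Control replicate 4 lies to the right in the adipocyte panel, and the RCS arrays lie between -0.68 and -0.22 in the cardiomyocyte panel.

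RNA measures differed between groups as well. The actin control probe sets read 1.55 higher at the 3′ end than at the 5′ end in control (log2, range 1.24 to 1.96), 1.47 in SWOP, 1.15 in RCO and 0.652 in RCS. The RCS difference from control had an exact two-sided permutation p of 0.00794, the smallest that 5 against 5 arrays allow, and the RCO difference had an exact permutation p of 0.103. Spike-in signal stood apart on RCO replicate 1 (11.05) and SWOP replicate 1 (10.87), against at most 10.60 on the other arrays. On all RCS arrays it was lower, at 10.18 to 10.40, than on the control arrays, at 10.53 to 10.60 (exact permutation p = 0.00794). The spread of signal on an array, as the interquartile range, was 3.09 in control, 3.28 in SWOP and 3.36 in RCS, each of the latter with an exact permutation p of 0.00794 against control. The 3′ to 5′ difference of the GAPDH control probe sets was -0.10 in control and 0.05 in RCS (exact permutation p = 0.0238). Array medians ran from 6.75 to 6.82. The part of these measures in the AGT result was not tested.

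The other genes of the renin-angiotensin system were taken from a list of 38, of which 16 including AGT were measured. The 15 besides AGT carry the tests below. In SWOP 1 of the 15 was called higher and none lower, with 5 at an unadjusted p below 0.05, where 7.15% of all probe sets were called, 3.01% as higher. In RCO 4 were called higher and 1 lower, against 10.7% of all probe sets. In RCS 9 were called higher and 2 lower, against 47.5% of all probe sets. The median difference of the 15 was 0.14 in SWOP, 0.37 in RCO and 0.71 in RCS, where the medians over all genes were 0.04, 0.01 and -0.00. The comparisons with control share the same 5 control arrays. CMA1, AGTR2, MAS1 and NR3C2 were among the listed genes not analysed here, so the chymase route and the counter-acting receptors have no values.

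**Figure D3:**
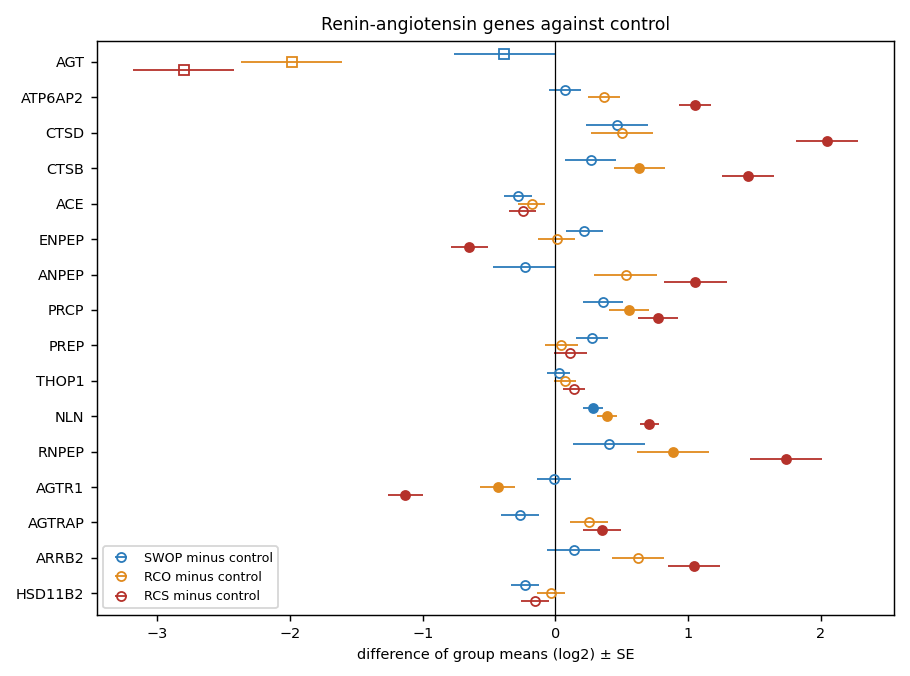
Difference from control (log2, horizontal axis, with SE) for AGT and the 15 other measured genes of the renin-angiotensin system in SWOP, RCO and RCS. Filled symbols passed an adjusted p below 0.05, hollow ones did not, and the squares of AGT carry no test. AGTR1 lies to the left of 0 beside AGT in RCO and RCS, and CTSD reaches 2.05 in RCS.

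Among genes listed for the first cut of angiotensinogen, 3 of 3 measured rose in RCS, where 19.3% of all probe sets were called higher. ATP6AP2, an accessory part of the vacuolar proton pump, read 9.79, 9.53, 9.73, 9.66 and 9.38 in control and 10.74, 10.94, 10.80, 10.52 and 10.34 in RCS. Every RCS array was above every control array, as was the case for 14.8% of all probe sets, and the difference was 1.05 (SE 0.12, adjusted p = 2.88e-06). In RCO the ATP6AP2 arrays, 9.69 to 10.27, overlapped control, with a difference of 0.37 (adjusted p = 0.052).

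CTSD and CTSB encode cathepsins D and B, lysosomal proteases, of which the former can cut angiotensinogen in the test tube. CTSD read 9.78 to 10.12 in control and 11.46 to 12.54 in RCS, a rise of 2.05 (SE 0.23, adjusted p = 2.98e-06). In RCO it read 9.35, 11.02, 10.93, 10.57 and 10.30, which spans the control values, with a difference of 0.50 (adjusted p = 0.168). CTSB rose by 1.45 in RCS (SE 0.19, adjusted p = 1.35e-05), from 12.16 to 12.35 in control to 13.32 to 13.95. Its RCO difference of 0.63 (adjusted p = 0.0422) passed, but RCO replicate 1 at 11.95 was below every control array. Without RCO replicates 2 and 3, the arrays richest in macrophage markers, the difference was 0.29 (adjusted p = 0.365), and the call was also lost without any 1 control array and without RCO replicate 2, 3 or 4 alone. Macrophages are rich in both cathepsins, and the part of the macrophage markers given above in these rises was not tested.

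ACE, angiotensin-converting enzyme of the vessel lining, changed past the threshold in none of the protocols. It read 7.72, 7.81, 7.79, 7.96 and 7.86 in control and 7.53, 7.86, 7.44, 7.52 and 7.55 in RCS, overlapping because of RCS replicate 2. The difference was -0.25 (SE 0.105, 95% interval -0.47 to -0.03, adjusted p = 0.0578). In SWOP the ACE difference was -0.28 (adjusted p = 0.095) and in RCO -0.18 (adjusted p = 0.281). Those intervals ran from -0.51 to -0.06 and from -0.40 to 0.04.

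Of 7 measured peptidases that shorten or inactivate angiotensins, 4 rose and 1 fell in RCS, where 19.3% of all probe sets were called higher and 28.2% lower. ENPEP, aminopeptidase A, which converts angiotensin II to angiotensin III, was the one that fell: control arrays read 6.54 to 7.07 and RCS arrays 5.75 to 6.27, without overlap, a difference of -0.65 (SE 0.14, adjusted p = 0.00101). Of all probe sets 17.8% had every RCS array below every control array, and the RCS values of ENPEP were close to the floor. In SWOP and RCO ENPEP overlapped control, with differences of 0.22 and 0.01. ANPEP, aminopeptidase N, which acts on angiotensin III, went the other way. It read 5.28 to 5.94 in control, close to the floor, 5.51, 7.11, 6.21, 5.68 and 5.84 in RCO and 5.98 to 7.13 in RCS. Its RCS difference was 1.05 (SE 0.24, adjusted p = 0.00152), and its RCO difference of 0.53 did not pass (adjusted p = 0.158).

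PRCP, a lysosomal carboxypeptidase that forms angiotensin 1-7, read 9.15 to 9.63 in control, 9.64 to 10.32 in RCO and 9.88 to 10.53 in RCS. It rose by 0.55 in RCO (adjusted p = 0.0242) and by 0.78 in RCS (SE 0.15, adjusted p = 0.000436). The RCO call was lost without control replicate 2, RCO replicate 2 or RCO replicate 3 (adjusted p from 0.0621 to 0.0749), and without both of those RCO arrays, when the difference was 0.37 (adjusted p = 0.201). RNPEP, aminopeptidase B, rose by 0.89 in RCO (SE 0.27, adjusted p = 0.0423) and by 1.74 in RCS (adjusted p = 6.13e-05), and its second probe set gave 0.63 and 0.91. The RCO call of RNPEP was lost without any 1 control array and without RCO replicate 2 or 3 (adjusted p from 0.0533 to 0.123), and without both RCO arrays the difference was 0.31. PREP and THOP1, which also form angiotensin 1-7, differed from control by at most 0.27 and 0.14 and did not pass in any protocol.

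NLN, neurolysin, was called higher in all 3 protocols from its brightest probe set, by 0.28, 0.39 and 0.71. Its 5 probe sets disagree. The 2 bright ones, near 11.5 to 12.4, gave these rises, while the other 3 gave -0.06, -0.06 and -0.21 in RCO and -0.21, -0.14 and 0.02 in RCS. In SWOP all 5 were above control, by 0.07 to 0.49, and 3 of them passed. The brightest bears the suffix x_at, which marks probes that may bind other transcripts. With the mean of all NLN probe sets the difference was 0.28 in SWOP, 0.09 in RCO and 0.22 in RCS (adjusted p = 0.0436), and only the last of these passed. The RCS call held in all 18 alternatives run, but whether the bright probe sets measure NLN is uncertain, since the platform's gene table also assigns to it dim ones that differ from them. Without NLN the list counts were 0 higher and 0 lower of 14 in SWOP by limma (4 at an unadjusted p below 0.05), 3 and 1 in RCO, and 8 and 2 in RCS. Of all probe sets 7.15%, 10.7% and 47.5% were called in SWOP, RCO and RCS.

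AGTR1, the type 1 receptor through which angiotensin II acts on heart muscle, fibroblasts and vessels, fell in the same protocols in which AGT was low. Control arrays read 8.96, 8.91, 9.39, 9.14 and 8.98, a mean of 9.08 ± 0.20 (SD, n = 5). SWOP arrays read 8.70, 9.09, 9.11, 9.12 and 9.31, a mean of 9.07 ± 0.22. RCO arrays read 8.70, 8.43, 8.65, 8.78 and 8.64, a mean of 8.64 ± 0.13. RCS arrays read 8.36, 7.73, 7.69, 7.89 and 8.06, a mean of 7.95 ± 0.27. All RCO arrays lay below all control arrays, and all RCS arrays lay below those of the other 3 groups. Of all probe sets 4.25% had their 5 RCS arrays below the 5 RCO arrays. The shares were 17.8% for RCS below control, 11.9% for RCS below SWOP and 2.95% for RCO below control.

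AGTR1 differed from control by -0.01 in SWOP (95% interval -0.28 to 0.26, adjusted p = 0.971), -0.44 in RCO (SE 0.13, adjusted p = 0.036) and -1.13 in RCS (SE 0.13, adjusted p = 3.04e-06). RCS was also lower than RCO, by 0.69 (adjusted p = 0.00264). In RCS the call held in all 18 alternatives run, with differences from -1.25 to -1.05. In RCO it was lost in 7 of 20, and without RCO replicates 2 and 3 the difference was -0.37 (adjusted p = 0.17). It was also lost without control replicate 3 or 4 and without RCO replicate 2 or 3 alone, with adjusted p-values from 0.0699 to 0.0867.

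Both measured partners of the receptor were called higher in RCS, where 19.3% of all probe sets were, although the call of AGTRAP was not stable. ARRB2, beta-arrestin 2, which binds the active receptor and takes it into the cell, rose by 1.04 in RCS (SE 0.20, adjusted p = 0.000377), with RCS arrays at 8.31 to 9.08 and control arrays at 7.58 to 7.90. In RCO the ARRB2 difference was 0.62 (adjusted p = 0.0501). AGTRAP, a protein that promotes uptake of the type 1 receptor, differed by 0.35 in RCS (SE 0.14, adjusted p = 0.0479), a call lost in 10 of 18 alternatives, the replicate block and every removal of 1 control or RCS array except control replicate 4 and RCS replicate 5 among them (adjusted p up to 0.12). It differed by 0.52 between RCO and SWOP (adjusted p = 0.0267), a comparison in which 10.1% of all probe sets were called. HSD11B2, which shields the mineralocorticoid receptor from cortisol and was the only measured gene of the aldosterone side, differed from control by -0.23, -0.04 and -0.15 in SWOP, RCO and RCS and did not pass. It read 5.31 to 5.87 over all arrays, close to the floor.

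Between the protocols, the 15 genes gave 9 higher and 2 lower in RCS against SWOP, where 29.1% of all probe sets were called. In RCS against RCO 5 were higher and 2 lower, where 19.1% of all probe sets were called. The genes lower in RCS than in RCO were AGTR1 and ENPEP, the latter by 0.66 (adjusted p = 0.00515).

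The kallikrein-kinin system forms bradykinin, a peptide that widens vessels and is broken down by the same converting enzyme. Of 8 listed genes 6 were measured. None of the 6 was called in SWOP by limma, with 5 at an unadjusted p below 0.05, where 7.15% of all probe sets were called. CPM, carboxypeptidase M, a kinin-processing enzyme of cell surfaces, read 7.03 to 7.98 in control, 7.34, 10.13, 9.41, 8.61 and 8.41 in RCO and 10.05 to 11.43 in RCS. It rose by 3.21 in RCS (SE 0.36, adjusted p = 2.75e-06). Its RCO rise of 1.18 (adjusted p = 0.0417) was lost without control replicate 1, 2 or 3 and without RCO replicate 2, 3 or 4 (adjusted p from 0.0538 to 0.118), and it was 0.52 without RCO replicates 2 and 3. KLK1, tissue kallikrein, fell by 0.68 in RCS (adjusted p = 0.000263), as did 3 other genes of the list by smaller amounts, where 28.2% of all probe sets were called lower, among them KNG1, the kinin precursor, by 0.25 from a control level of 5.30 to 5.54, close to the floor. Quantile normalization ended the KNG1 call (adjusted p = 0.135).

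Factors known to act on the AGT promoter include the glucocorticoid receptor, C/EBP proteins, STAT3, thyroid hormone receptors and signals of inflammation. Of 23 such genes 19 were measured. In RCO, where AGT was 1.99 below control, none of the 19 was called by limma, with 2 at an unadjusted p below 0.05. Over all probe sets 10.7% were called in RCO, and the median difference of the 19 was -0.05. In SWOP, where 4.14% of all probe sets were called lower, 2 were lower: TNF by 0.58 (adjusted p = 0.0191) and CEBPA by 0.41 (adjusted p = 0.0417). Leaving out control replicate 4, or SWOP replicate 2 or 4, ended the TNF call (adjusted p up to 0.0598), and that of CEBPA ended without control replicate 2, 4 or 5 and without any 1 SWOP array (up to 0.107). In RCS 3 were higher and 7 lower of 19, with a median of -0.24, where 19.3% of all probe sets were called higher and 28.2% lower.

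STAT3, the factor through which interleukin 6 signals act, rose in RCS from 9.21 to 9.72 in control to 9.94 to 10.64, by 0.90 (SE 0.17, adjusted p = 0.000379). TNF fell by 0.82 (adjusted p = 9.8e-05) and THRA, the thyroid hormone receptor alpha, by 0.60 (SE 0.16, adjusted p = 0.00474). NR3C1, the glucocorticoid receptor, differed by -0.11, -0.25 and -0.25 in SWOP, RCO and RCS, and the last of these passed (adjusted p = 0.0323). It was lost without control replicate 1, 2 or 3 or RCS replicate 2, 3 or 5, at adjusted p-values up to 0.0966. These are transcript levels, and activity of the factors was not measured.

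Of 14 listed glucocorticoid targets 11 were measured. PER1, a clock gene that glucocorticoids induce, was lower than control in every protocol, by 0.82 in SWOP (adjusted p = 0.0149), 0.68 in RCO (adjusted p = 0.0213) and 0.64 in RCS (adjusted p = 0.00761). KLF9, another such target, passed in RCO (-0.51, adjusted p = 0.0484) and FKBP5 in SWOP (-0.54, adjusted p = 0.0382). The KLF9 call was lost without control replicate 1, 3 or 4 and without any 1 RCO array (adjusted p up to 0.124), and the mean of its probe sets gave -0.20 (adjusted p = 0.144). The FKBP5 call was lost without control replicate 1, 2, 4 or 5 or SWOP replicate 2, 3 or 4 (up to 0.0979). The PER1 call in RCO was lost without control replicate 3 or RCO replicate 2 or 3 (up to 0.0564). SGK1, a kinase induced by steroid hormones, rose in RCS by 1.08 (adjusted p = 0.00374). CEBPD was called higher in RCS too. Of the 11, 2 were called lower in each protocol, and 2 higher in RCS. Over all probe sets 4.14%, 4.81% and 28.2% were called lower in SWOP, RCO and RCS, and 19.3% higher in RCS. The medians of the 11 were -0.45 in SWOP, -0.35 in RCO and -0.35 in RCS, where those over all genes were 0.04, 0.01 and -0.00. The part of glucocorticoids in the AGT result was not tested. No source used here gives the time of day at sampling.

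Genes known to respond to angiotensin II were listed as 24, of which 18 were measured. They include markers of wall stress and scar formation that many other signals also induce. None of the 18 was called in SWOP by limma (4 at an unadjusted p below 0.05), 4 were higher in RCO and 9 were higher in RCS, and in both none was lower. Over all probe sets 7.15% were called in SWOP in either direction, and 5.9% were called higher in RCO and 19.3% in RCS. Their median difference was -0.14 in SWOP, 0.83 in RCO and 0.88 in RCS.

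SPP1, osteopontin, a matrix protein of injured heart, read 6.73, 7.75, 8.65, 8.85 and 7.63 in control, 13.27, 13.60, 12.75 and 12.05 on RCO replicates 2 to 5, and 13.28 to 14.06 in RCS. RCO replicate 1 lay between the highest control array and the highest SWOP array, which read 9.57. The rise was 4.21 in RCO (SE 0.65, adjusted p = 0.00104) and 5.74 in RCS (adjusted p = 2.77e-06). POSTN, periostin, made by activated fibroblasts, rose by 1.99 in RCO (SE 0.39, adjusted p = 0.00357) and by 3.25 in RCS (adjusted p = 4.76e-06).

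NPPA and NPPB, the atrial and brain natriuretic peptides that oppose the renin-angiotensin system, rose in RCS by 3.42 (SE 0.52, adjusted p = 5.04e-05) and 3.71 (SE 0.61, adjusted p = 0.000105). NPPB read 7.44 to 10.94 in control, 10.79 to 12.91 in RCO and 12.28 to 13.61 in RCS. Its RCO rise of 2.08 (adjusted p = 0.0359) and that of TIMP1, an inhibitor of matrix proteases, of 1.68 (adjusted p = 0.0412) were each lost in 9 alternatives. For both these included leaving out control replicate 1, 2 or 3 or RCO replicate 2 or 3, with adjusted p-values up to 0.116, and for TIMP1 also control replicate 5. Without both RCO arrays TIMP1 differed by 0.60 and NPPB by 1.62. Without the same arrays SPP1 and POSTN still passed in RCO, at 3.34 (adjusted p = 0.00975) and 1.39 (adjusted p = 0.0393).

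On single arrays the mean of the 18 responders relative to control was -0.54, -0.65, 0.01, 1.26 and -0.08 in control, and 0.16, 1.33, 1.58, 0.74 and 0.50 in RCO. It was 1.18 to 1.70 in RCS. Control replicate 4, highest in AGT, was also the highest control array for this list. IL6, interleukin 6, which is also in the list of AGT regulators, read 9.98 on that array and 4.39 to 5.67 on all others. The part of this signal in the AGT result was not tested.

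**Figure D4:**
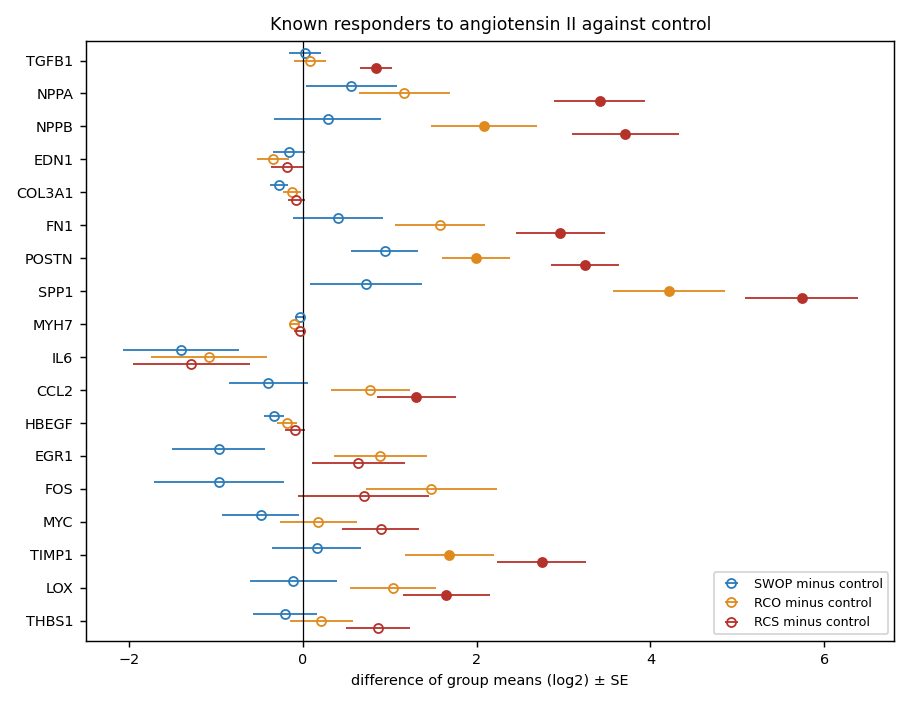
Difference from control (log2, horizontal axis, with SE) for the 18 measured genes that are known to respond to angiotensin II, in SWOP, RCO and RCS. Filled symbols passed an adjusted p below 0.05. SPP1 reaches 4.21 in RCO and 5.74 in RCS, and no SWOP symbol is filled.

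AGT belongs to the serpins, a family named for its protease inhibitors although AGT itself inhibits none. Of 21 other serpins 12 were measured, with 1 lower in SWOP, 4 higher in RCO, and 5 higher and 4 lower in RCS. Over all probe sets 4.14% were called lower in SWOP, 5.9% higher in RCO, and 19.3% higher and 28.2% lower in RCS, so that the 4 lower of 12 are near the share of all probe sets. SERPINE2, an inhibitor of thrombin and plasminogen activators, read 8.45 to 9.25 in control, 9.43 to 10.89 in RCO and 10.35 to 11.56 in RCS. It rose by 1.15 in RCO (adjusted p = 0.01) and by 2.07 in RCS (SE 0.27, adjusted p = 9.16e-06). SERPINB2 rose by 0.98 and 1.42, and SERPINH1, a collagen chaperone, by 0.82 and 1.30, in RCO and RCS. Without RCO replicates 2 and 3 the RCO calls of SERPINE2 and SERPINH1 were lost (adjusted p = 0.0878 and 0.0922). SERPIND1, heparin cofactor II, fell by 0.46 in SWOP (adjusted p = 0.0209) and by 0.59 in RCS (adjusted p = 0.000316), at signals of 5.10 to 6.25 near the floor of the array, and its SWOP call ended when replicate 2 or 4 of either group was left out (adjusted p up to 0.0581). Among the differences from control of the 12 serpins, none was as far below 0 as that of AGT in RCO or RCS. This follows from how AGT was picked and says nothing about the family.

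The genes whose signal followed AGT most closely were sought by Pearson correlation over the 20 arrays among 5801 genes that were bright enough in at least 1 group. The arrays fall into groups, so these values mostly restate differences between groups and are a description with no p. BCAT2, the mitochondrial enzyme that starts the breakdown of branched-chain amino acids, was first (r = 0.92, Spearman rho 0.88). SCARA5, a ferritin receptor (r = 0.92), ADHFE1 (r = 0.92), BCKDHA, a subunit of the branched-chain keto acid dehydrogenase (r = 0.91), and MYZAP, a protein of the cardiac intercalated disc (r = 0.91), followed. CYP27A1, a mitochondrial sterol hydroxylase, SELENBP1, a selenium-binding protein, and CPT1B, which admits fatty acids to muscle mitochondria, each had r = 0.90.

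In all 8, RCS had the lowest mean and RCO the next, and each of these differences from control was smaller than that of AGT. SCARA5 differed from control by -0.17, -1.56 and -2.53 in SWOP, RCO and RCS, and BCAT2 by -0.16, -0.79 and -1.15. CPT1B differed by -0.23, -1.12 and -1.70. The correlation of deviations from the group means, which removes the differences between groups, was 0.63 for BCAT2, 0.60 for SCARA5 and 0.45 for CPT1B. Over all 5801 genes the central 90% of r ran from -0.80 to 0.75 and that of the within-group values from -0.42 to 0.44.

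Running opposite to AGT were TXN, thioredoxin (r = -0.91), HDAC1, a histone deacetylase (r = -0.89), TMEM251 (r = -0.89), APITD1 (r = -0.88) and CHEK2, a DNA damage kinase (r = -0.88). TXN differed from control by 0.36, 1.04 and 1.45 in SWOP, RCO and RCS. Within groups the closest genes were UBE4A (0.73), PKIG (0.72), SLC25A33 (0.70), ITGB7 (0.70) and PRSS2 (0.68), and of these PKIG alone also had an r above 0.8 over all arrays (0.85). SLC25A33 had an r of -0.27 over all arrays. ITGB7 read 5.23 to 6.16 and PRSS2 4.97 to 5.86 over all arrays, close to the floor. Among the genes of its own system AGTR1 had the highest r with AGT, 0.83, and 0.32 within groups. ARRB2 had the most negative, -0.82, and -0.41 within groups.

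**Figure D5:**
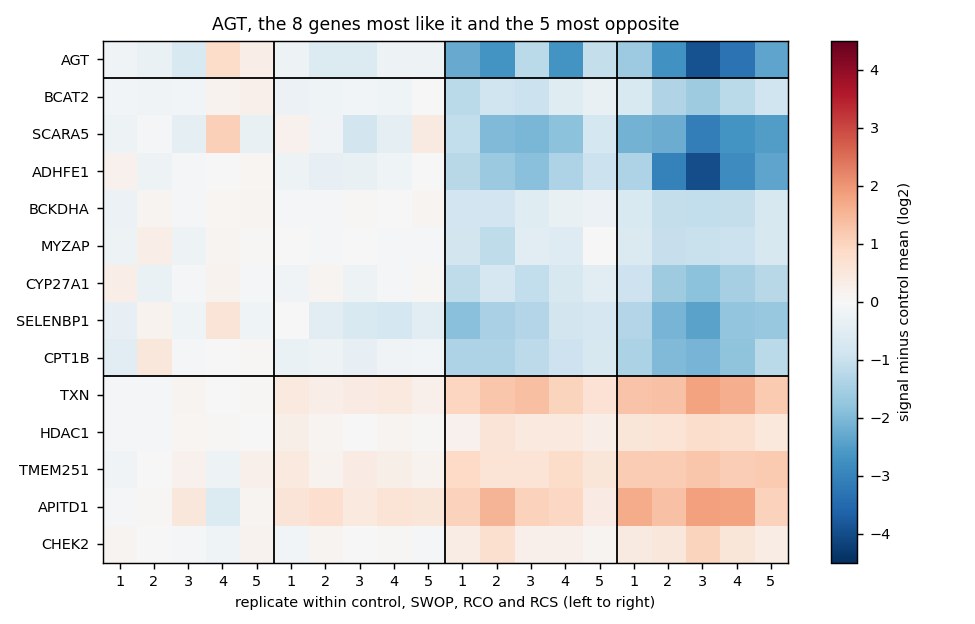
Log2 signal relative to the control mean of AGT and of the genes that followed it most closely or ran most opposite to it, on each of the 20 arrays ordered by group. AGT and the 8 closest genes are low on the RCO and RCS arrays, and TXN and HDAC1 are high there.

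Genes beside AGT in the genome differed less from control than AGT did in RCO and RCS. Since AGT was picked for its pattern, this comparison carries no weight. The 5 nearest genes on each side were taken by the gene order of RefSeq on the pig assembly Sscrofa11.1, which was used for order only. Over both sides together, only 3 of these genes had a named probe set, and the others have no values. ARV1, a lipid transport protein, differed from control by 0.27, 0.53 and 0.73 in SWOP, RCO and RCS. C14H1orf198 differed by -0.03, -0.34 and -0.21, and COG2, a Golgi subunit, by -0.05, -0.02 and -0.12. These were picked by position alone, and no test of the difference from AGT was made.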

How the data were processed

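The authors deposited log2 values. RMA and MAS5 are named in the submitters' processing notes, with no version or role, and per the labels total RNA was labelled with biotin. The log base is not stated and was taken as 2 from the range. No raw images were used here, and the number of arrays limits the precision. The 4 group means were estimated from 20 arrays in limma 3.58.1 (lmFit, eBayes; R 4.3.3; 16 residual degrees of freedom), with Benjamini-Hochberg adjustment over 23999 probe sets within each comparison. A probe set passed at an adjusted p below 0.05. A gene was taken at its brightest probe set with 1 symbol (10069 probe sets, 6765 genes). Printed 95% intervals are unadjusted, from the SE. Likeness to AGT used genes whose highest group mean exceeded the 30th percentile of signal.

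AGT and the lists were chosen with earlier results of these data known. Named genes were AGT, measured renin-angiotensin genes, up to 4 members of smallest adjusted p that passed per other list and comparison with control, and the 8, 5 and 5 genes most like, most opposite to, and most like AGT within groups. NR3C1, IL6, SERPINA1, PKIG's r above 0.8, the lowest genes of a comparison and defining markers were named beside these after their values were seen. Array properties were compared by exact permutation. The procedure was tested on simulated data. Alternatives were quantile normalization, median centring, a filter on dim probe sets, an intensity trend, array weights, a replicate block, fits of 2 groups, the mean of a gene's probe sets, and arrays left out. Python 3.11.15 with numpy 2.4.6, pandas 2.3.3 and matplotlib 3.10.9 produced tables and figures.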

Additional observations from a re-analysis of the deposited data

Results flagged for a closer look

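Of the 64 groups of arrays examined for the 16 measured renin-angiotensin genes, 2 had an array far from the other 4, where chance gives about 1 in 20. The limit used was a gap of more than 0.71 of the group's range. ACE read 7.86 on RCS replicate 2, against 7.55 on the next RCS array, a gap of 0.738 of the range. AGTRAP read 7.41 on SWOP replicate 1, against 7.03 on the next SWOP array, a gap of 0.844 of the range, and that array also had a high spike-in signal of 10.87.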

How the results depend on the processing

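The AGT differences kept their direction under the alternatives run. Leaving out each array in turn, they ran from -3.09 to -2.52 in RCS, -2.22 to -1.78 in RCO and -0.55 to -0.18 in SWOP against control, and from -1.10 to -0.53 in RCS against RCO, against -0.39 and -0.81 with all arrays for the last 2. The smallest were those without control replicate 4 for SWOP and without RCS replicate 3 for RCS against RCO. Quantile normalization gave -0.51, -2.07 and -2.93. Counts were less stable. Of 1716 probe sets called in SWOP against control, quantile normalization left 957, while array weights gave 5710 and a fit of only the 2 groups 4091. Fits of 2 groups called 564 in RCO against control (2571), 863 in RCO against SWOP (2414) and 931 in RCS against RCO (4572). Without RCO replicates 2 and 3, 1135 were called in RCO against control and 9052 in RCS against RCO. Without RCO replicate 1 and SWOP replicate 1, a choice made after seeing the data, the latter was 2951. Leaving out 1 array gave 9439 to 11417 in RCS, 1323 to 4251 in RCO and 480 to 2023 in SWOP against control, 1006 to 2988 in RCO and 5430 to 7118 in RCS against SWOP, and 2053 to 7448 in RCS against RCO.

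Of the renin-angiotensin genes called in SWOP against control, quantile normalization and the mean of all probe sets each gave 0 by limma, array weights 4 and the fit of 2 groups 5. In RCO against control the fit of 2 groups and the fit without RCO replicates 2 and 3 gave 1 each, and the fit that left out RCO replicate 1 and SWOP replicate 1 gave 8. In RCO against SWOP quantile normalization gave 1, and the fit of 2 groups and that without RCO replicates 2 and 3 gave 0. The fit of 2 groups gave 4 in RCS against RCO. Leaving out 1 array gave 0 to 1, 1 to 8 and 10 to 11 in SWOP, RCO and RCS against control, 0 to 5 in RCO and 10 to 11 in RCS against SWOP, and 6 to 9 in RCS against RCO.

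Of 120 differences from control called for listed genes, 73 held in every alternative run. CEBPA in RCS turned from -0.30 to 0.084 with the mean of its probe sets. Same-numbered arrays of different groups correlated at -0.18 to 0.44 in their deviations from the group means (median 0.07). Differently numbered arrays correlated at -0.47 to 0.46 (median -0.00). Whether the replicate numbers mark a pairing or a shared batch was not tested. With the replicate block, 2119, 3061 and 11796 probe sets were called in SWOP, RCO and RCS against control, with 1, 7 and 10 renin-angiotensin genes. The causes of these changes were not tested. A change of pseudocount does not apply to log2 values.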

Other observations

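The 2 enzymes of branched-chain amino acid breakdown among the genes closest to AGT, BCAT2 and BCKDHA, led to a look at that pathway as a whole. The list was written after the likeness to AGT had been seen, so it carries no test. Its 17 measured genes include those 2 enzymes, whose low signal in RCO and RCS follows from how they were picked. Of the 17, 16 were below control in RCO, as in RCS, and 7 in SWOP. Of all 6765 genes 47.5%, 50.4% and 42.6% were below control in RCO, RCS and SWOP. The median differences of the 17 were -0.41, -0.71 and 0.02 in that order. IVD, isovaleryl-CoA dehydrogenase, differed by -0.74 in RCO and -1.20 in RCS. PCCA, a subunit of propionyl-CoA carboxylase, differed by -0.63 and -1.30, and ACADSB, a short branched-chain acyl-CoA dehydrogenase, by -0.52 and -1.32. BCAT1, the cytosolic aminotransferase, went the other way in RCS, with a difference of 1.23 from a control mean of 4.92, near the floor of the array. The correlation with AGT over the 20 arrays had a median of 0.79 and ran from -0.80 for BCAT1 to 0.92 for BCAT2.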
